A study of Arabidopsis thaliana with 6 samples.

Results

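The genes described here are 10 Arabidopsis transcription factor genes of the AP2/ERF family that are linked to wounding and regeneration: ERF108 to ERF115, and ESR1 and ESR2. They were found in the files by locus, and all 10 were among the 32627 loci measured. Their transcripts were compared in roots of 2 estradiol-inducible lines, pER8::OBP4 and pER8::GFP, with 3 arrays each. The GFP line is the control. Seedlings of both lines were 5 days old when they were moved to medium with 10 µM estradiol, and roots were taken after 8 h. Each replicate was grown on plates of its own. Both groups therefore carry an induced transgene and both received estradiol, so differences between the lines from before induction cannot be told apart from effects of OBP4. The labels do not say how many independent transgenic lines stand behind each group. OBP4 is a DOF factor, a plant zinc finger protein that binds DNA, and the study concerns root growth, cell elongation and callus, the unorganised cell mass that plants can form at wounds.

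AP2/ERF proteins bind DNA through a domain that reads short GC-rich elements, and many of their genes respond within minutes to wounding, jasmonate, ethylene or reactive oxygen. ERF108 to ERF115 form a subgroup of this family, in which several members act when cut or damaged plant tissue divides and rejoins. ESR1 and ESR2 belong to another subgroup and promote the formation of shoots from callus. ESR1 is a target of the wound-induced factor WIND1, and ERF115 works with the GRAS protein PAT1 when stem cells of the root are replaced.

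The values are log2 signals from one-colour arrays, on which brightness is not comparable between probes of different genes, so each gene is compared only with itself. Each of the 10 loci had 1 gene model and 3 or 4 probes. ESR1 and ESR2 were among the dimmest 25% of loci, and 7 of the 10 were among the dimmest 50%. For OBP4 itself the pER8::OBP4 arrays (15.74 to 15.86) were all above the control arrays (14.37 to 14.78). The former lay near the highest deposited value, 15.93, where differences are compressed, so the size of this separation is less exact. All 12 root markers gave values of 11.87 or more in every array. By limma, the test used below, 5 of the 12 fell in OBP4 roots and 0 rose, against 8.48% of all loci lower and 5.23% higher. Their median difference was -0.31 on the log2 scale. The number that fell was 2 without control replicate 2 or 3 or OBP4 replicate 1 or 3. It was 4 without control replicate 1 or OBP4 replicate 2. The iron transporter gene IRT1 fell by 2.01, and GL2 and WER, which set the fate of root epidermis cells, fell by 0.74 and 0.53. The part of these shifts in the results below was not tested. The median of 29 photosynthesis genes, markers of green shoot tissue, was 12.25, 11.78 and 13.21 in the control arrays and 15.37, 11.38 and 13.54 in the OBP4 arrays, each in the order of replicates 1 to 3, which is kept below. Of 7 shoot meristem markers none passed the test, and their median lay between 6.47 and 7.66 in the 6 arrays. KNAT1 was brighter, at 12.14 to 12.81. In 2 of the 7, CUC2 (0.72) and KNAT1 (0.33), every OBP4 array was above every control array. Groups were apart in either direction in 36.9% of all loci. Both genes were named after their values were seen. In RNA from whole roots, fewer cells of a type and less RNA per cell cannot be told apart.

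None of the 10 genes passed the test between OBP4 and control roots. With limma, p-values adjusted over all loci by Benjamini-Hochberg and a limit of 0.05, 0 of 10 were higher and 0 lower, while 13.7% of all loci passed. At an unadjusted p under 0.05 the count was 2 of 10, ERF112 and RAP2.6L, both lower, against 28.5% of all loci. The median difference of the 10 genes was -0.09 on the log2 scale, and that of all loci was 0.02. In 9 of the 10 genes the 95% interval of the difference lay within 1 of 0 on the log2 scale, and ERF109 was the exception. The groups' arrays did not overlap in 2 genes, against 36.9% of all loci.

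**Figure D1:**
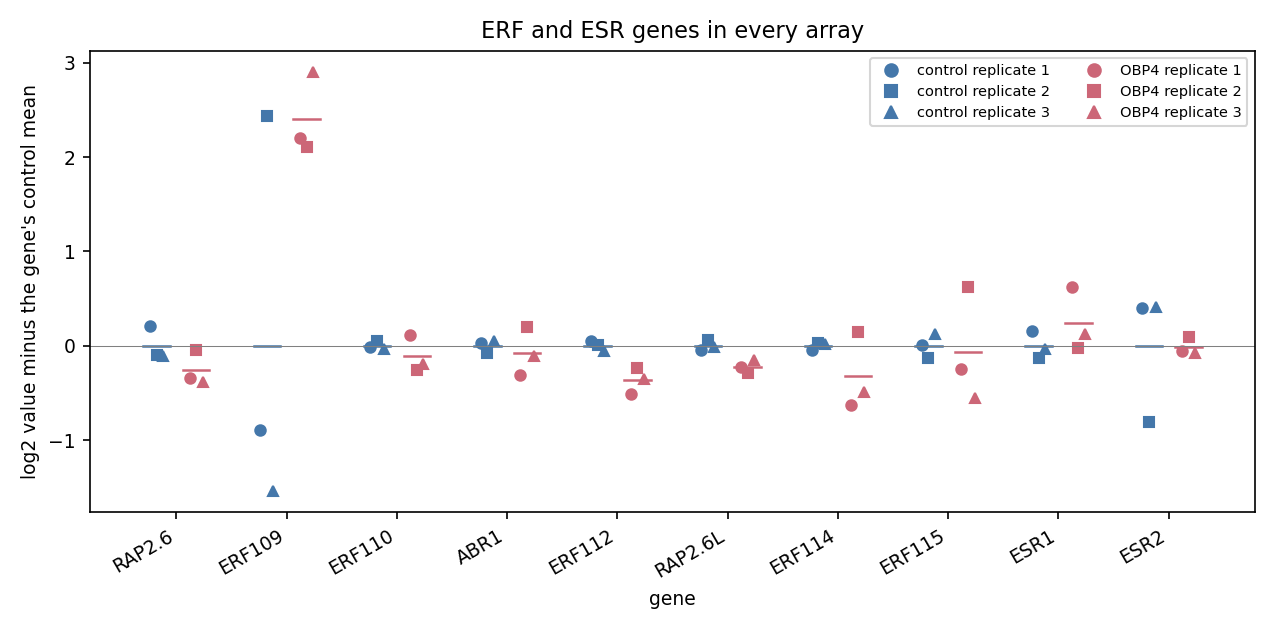
Log2 value of each gene in each of the 6 arrays, minus that gene's control mean (y axis), for the 10 genes (x axis); blue marks are control arrays, red marks OBP4 arrays, mark shapes are replicate numbers and short lines are group means. ERF112 and RAP2.6L are the 2 genes whose groups do not overlap, and in ERF109 control replicate 2 lies with the OBP4 arrays.

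Positions below are those printed in the array annotation, which names no genome build. RAP2.6, ERF109, ABR1 and ERF110 are known mainly from responses to stress hormones and stress. RAP2.6 (AT1G43160; ERF108; chromosome 1, 16263813 to 16264818, forward strand) responds to abscisic acid, jasmonate and wounding. Its values were 13.69, 13.38 and 13.37 in control roots and 13.14, 13.44 and 13.10 in OBP4 roots. OBP4 replicate 2 lay inside the control range and the other OBP4 arrays below it. The difference was -0.25 ± 0.14 (SE, n = 3 per group), with a 95% interval of -0.60 to 0.10 and limma's adjusted p = 0.304.

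ABR1 (AT5G64750; ERF111; chromosome 5, 25891506 to 25893888, forward strand) encodes a repressor of abscisic acid responses. It stood at 11.47, 11.36 and 11.49 in control roots and at 11.13, 11.64 and 11.34 in OBP4 roots. The OBP4 arrays lay on both sides of the control arrays. Its difference was -0.07 ± 0.14 (SE), with an interval of -0.43 to 0.29 and an adjusted p of 0.78 by limma.

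ERF110 (AT5G50080; chromosome 5, 20365722 to 20366835, forward strand) is linked to ethylene signalling in the timing of bolting. Control arrays gave 8.25, 8.32 and 8.22, and OBP4 arrays 8.38, 8.01 and 8.07. OBP4 replicate 1 was the highest of the 6 arrays and the other OBP4 arrays were the lowest. The difference was -0.11 ± 0.11 (SE), with an interval of -0.40 to 0.17 and an adjusted p of 0.581 by limma.

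ERF109 (AT4G34410; RRTF1 in the files; chromosome 4, 16451876 to 16453260, forward strand) responds to redox state and jasmonate, and in roots it activates auxin synthesis genes such as ASA1. Its values were 8.35, 11.67 and 7.70 in control roots and 11.45, 11.35 and 12.14 in OBP4 roots. All 3 OBP4 arrays were far above control replicates 1 and 3, and control replicate 2 lay among them, so the groups overlapped. The mean was 9.24 ± 2.13 (SD, n = 3) in control roots and 11.65 ± 0.43 (SD, n = 3) in OBP4 roots. That made a difference of 2.41 ± 1.07 (SE), or 5.31-fold, with a 95% interval of -0.28 to 5.09 and limma's adjusted p = 0.215. Without control replicate 2 the difference was 3.62, with limma's adjusted p = 0.00783, where 3.22% of all loci were called higher. That array is the high control of this gene, so a larger difference follows in part from leaving it out. With any other single array left out, limma's adjusted p was 0.304 to 0.412.

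RAP2.6L, ERF112, ERF114 and ERF115 include the genes of this subgroup best known from tissue repair. RAP2.6L (AT5G13330; ERF113; chromosome 5, 4272060 to 4274660, forward strand) is induced below a cut in flower stems, where it takes part in rejoining the tissue. Its values were 14.47, 14.57 and 14.50 in control roots and 14.30, 14.23 and 14.37 in OBP4 roots. Every OBP4 array was below every control array, an order that 18.9% of all loci also showed. The difference was -0.22 ± 0.07 (SE), with an interval of -0.39 to -0.05 and limma's adjusted p = 0.103 (unadjusted p = 0.0208). As lower, it passed by limma in 2 of the alternatives, without the dimmest 50% of loci (adjusted p = 0.0297) and with trend and robust settings (0.0354). Of all loci tested, 16.6% and 10.8% were called lower under these settings. In the 6 fits without 1 array RAP2.6L passed 0 times, with limma's adjusted p from 0.133 to 0.244.

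ERF112 (AT2G33710; chromosome 2, 14258509 to 14260733, reverse strand) is named only as an AP2 domain factor in the files. Control arrays gave 13.91, 13.88 and 13.81, and OBP4 arrays 13.36, 13.64 and 13.51. Here too the groups were apart, with OBP4 lower. The means were 13.87 ± 0.05 and 13.50 ± 0.14 (SD, n = 3 each), and the difference was -0.37 ± 0.09 (SE), with an interval of -0.60 to -0.14. Limma's adjusted p was 0.0583, just short of the threshold. The same gene passed by limma after cyclic loess (adjusted p = 0.0433), without the dimmest 25% (0.0339) or 50% (0.0152) of loci and with trend and robust settings (0.0167). The share of all loci called lower was 8.54% after cyclic loess and 13.1% without the dimmest 25%, and the other shares are those given for RAP2.6L. With each array left out in turn, ERF112 passed 0 times in 6, with limma's adjusted p from 0.0609 to 0.16.

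ERF114 (AT5G61890; chromosome 5, 24852639 to 24853910, reverse strand) is known to promote cell division and the outgrowth of buds. Its values were 10.17, 10.24 and 10.24 in control roots and 9.59, 10.36 and 9.73 in OBP4 roots. Control arrays lay close together, whereas OBP4 replicate 2 was above all of them and the other OBP4 arrays were below. The difference was -0.32 ± 0.21 (SE), with an interval of -0.85 to 0.21 and limma's adjusted p = 0.382. Without OBP4 replicate 2 it was -0.56, with limma's adjusted p = 0.0291, where 5.31% of all loci were called lower. That array is the high OBP4 array of this gene, so a larger fall follows in part from leaving it out. With any other single array left out, limma's adjusted p was 0.486 to 0.648.

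ERF115 (AT5G07310; chromosome 5, 2305684 to 2306660, forward strand) drives division of the quiescent centre cells of the root and the replacement of damaged stem cells. It stood at 8.63, 8.49 and 8.75 in control roots and at 8.38, 9.25 and 8.07 in OBP4 roots. As for ERF114, OBP4 replicate 2 was the highest of all arrays and the other OBP4 arrays were below every control array. The difference was -0.06 ± 0.31 (SE), with an interval of -0.84 to 0.72 and limma's adjusted p = 0.92. Without OBP4 replicate 2 it was -0.40, with an adjusted p of 0.183 by limma.

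ESR1 and ESR2 promote shoot formation, and their probes were dim in every array. ESR1 (AT1G12980; chromosome 1, 4429718 to 4430965, forward strand) gave 6.29, 6.01 and 6.11 in control roots and 6.76, 6.11 and 6.26 in OBP4 roots. OBP4 replicate 1 was the highest array and the rest overlapped. The difference was 0.24 ± 0.19 (SE), with an interval of -0.23 to 0.71 and limma's adjusted p = 0.466. OBP4 replicate 1 was also the array with the highest photosynthesis median (15.37). With the mean of the photosynthesis genes as a covariate the ESR1 difference was 0.11, with an adjusted p of 0.669 by limma. That fit was added after the data were seen. What part the photosynthesis signal has in the ESR1 values was not tested.

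ESR2 (AT1G24590; DRNL in the files; chromosome 1, 8714389 to 8715309, reverse strand) gave 6.71, 5.50 and 6.72 in control roots and 6.26, 6.41 and 6.23 in OBP4 roots. All OBP4 arrays lay between control replicate 2 and the other controls. The difference was -0.01 ± 0.35 (SE), with an interval of -0.89 to 0.87 and limma's adjusted p = 0.988. The deposited values begin at 4.67 and carry no detection call, so for these 2 genes a change that stays below what the probes register was not detectable.

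**Figure D2:**
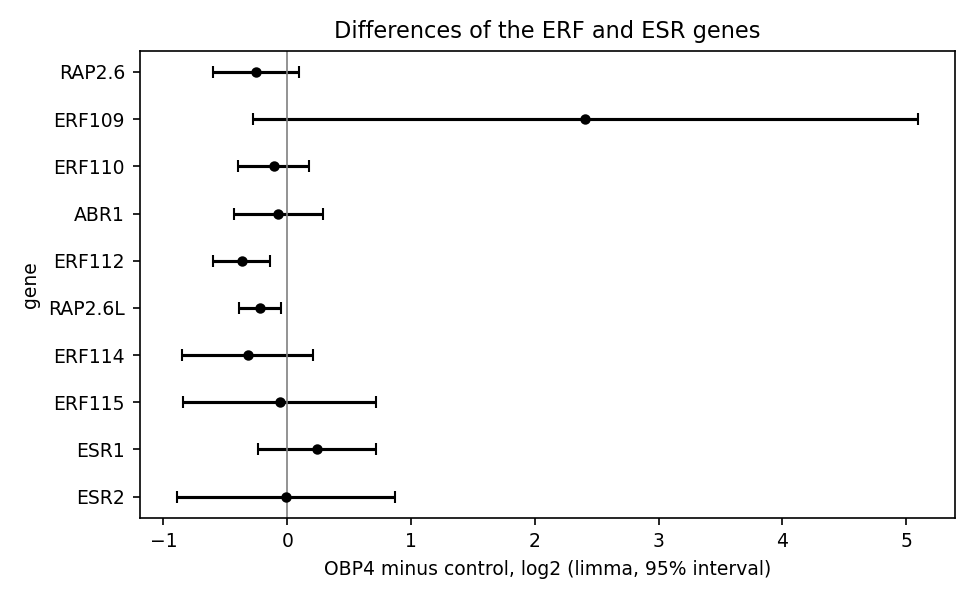
Difference between OBP4 and control roots on the log2 scale (x axis) for each of the 10 genes (y axis), with limma's 95% interval from 3 arrays per group. The intervals of ERF112 and RAP2.6L lie below 0, that of ERF109 reaches from -0.28 to 5.09, and the other 7 also contain 0.

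The high control value of ERF109 was that of replicate 2. In that array ERF109 was 3.65 above the mean of the other controls on the log2 scale, and no other locus of the 32627 exceeded the other controls there by as much. Only 5 loci, ERF109 included, had as large an SD among the controls. Genes that respond early to touch and stress were high in the same array. Of 19 such genes, 15 (78.9%) had their highest control value in replicate 2, against 31.4% of all loci. In 6 of the 19 that array exceeded the mean of the other controls by 1 or more, as it did in 3.48% of all loci. TCH4, a touch-induced wall enzyme gene, stood at 11.25, 13.25 and 11.40 in control replicates 1 to 3. ERF13, a stress-induced relative, stood at 7.30, 9.58 and 7.89 there. Both were named after their values were seen. What part the state of that sample has in the values of ERF109 was not tested.

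The fixed rule for genes of like profile applied to a called member, and none was called, so the search around ERF109 was added after its values were seen. Likeness was the root mean square difference of the log2 values over the 6 arrays, each gene centred on its own mean. The 5 nearest loci with a symbol were LCR27 (0.56), which encodes a small cysteine-rich protein, MYB15 (0.79), a stress-induced MYB factor, ERF13 (0.85), FLS2 (0.85; AT5G63580, named for flavonol synthase), and WRKY40 (0.89), an early defence factor. LCR27, the nearest of all loci, stood at 5.70, 8.86 and 5.68 in control roots and at 9.56, 10.25 and 10.26 in OBP4 roots. These 5 genes were picked for a profile like that of ERF109, so a high control replicate 2, high OBP4 arrays and their test results follow in part from the choice and support nothing. MYB15 (adjusted p = 0.0142), WRKY40 (0.016) and FLS2 (0.0393) passed limma's test as higher, whereas LCR27 (0.0805) and ERF13 (0.186) did not. With each array left out in turn, MYB15 and WRKY40 passed 2 times in 6 and FLS2 1 time.

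**Figure D3:**
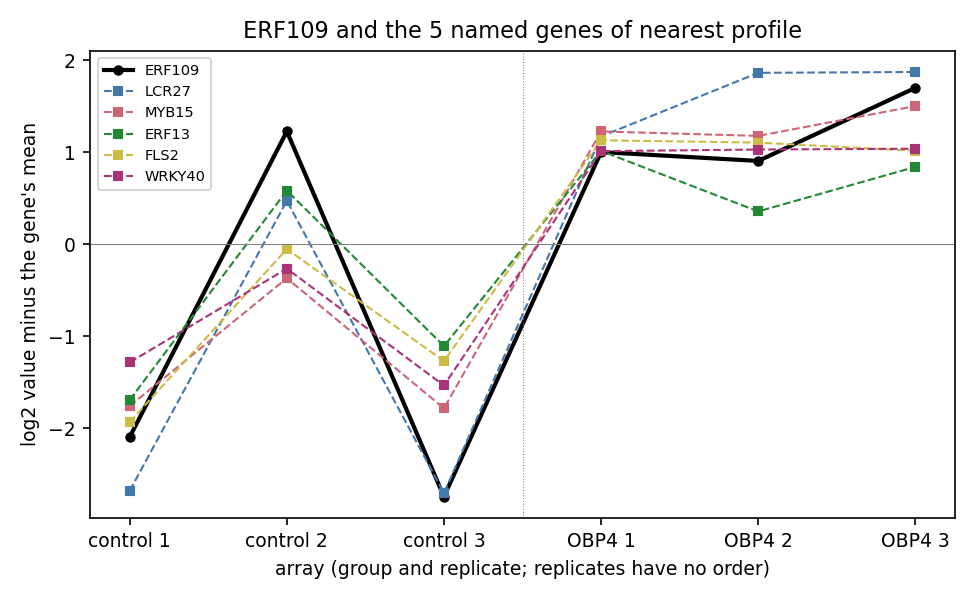
Log2 values of ERF109 (black) and of the 5 loci with a symbol whose profile is nearest to it, each minus its own mean over 6 arrays (y axis), in each array (x axis); lines join values of a gene and imply no order of replicates. The 5 genes were picked for this likeness, so their shared high values in control replicate 2 and in the OBP4 arrays are a description of the choice.

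RAP2.6, ABR1, ERF112, ERF114 and ERF115, 5 of the 8 ERF genes (62.5%), had their highest OBP4 value in replicate 2, as 40.5% of all loci did. With so few genes this count is not read as a trait of the subgroup. The array exceeded the mean of the other OBP4 arrays by 1.02 for ERF115, 0.70 for ERF114, 0.41 for ABR1, 0.32 for RAP2.6 and 0.20 for ERF112. For ERF109, ERF110 and RAP2.6L this difference was -0.45, -0.21 and -0.10. OBP4 replicate 2 was also the array with the lowest photosynthesis median, 11.38. With the photosynthesis mean as a covariate, an alternative added after the data were seen, 0 of the 10 genes passed limma's test. The count was 0 without the covariate too, so it cannot show what part the photosynthesis signal has.

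Other ERF genes did change in OBP4 roots. Of 32 relatives outside the 10 members, 5 rose and 3 fell by limma, with a median of 0.00, against 5.23% of all loci higher and 8.48% lower. ERF98 (TDR1), which sits between ERF1 and ERF95 in locus order, went from 8.29, 8.07 and 8.36 in control roots to 11.69, 11.78 and 11.68 in OBP4 roots. The arrays of each group lay close together and far from the other group, 3.48 ± 0.10 (SE) apart, and limma gave an adjusted p of 0.000386. Its neighbours ERF1 (0.56, adjusted p = 0.0674 by limma) and ERF95 (0.21, adjusted p = 0.737), named here for their position, did not pass. ORA59, which joins ethylene and jasmonate signals in defence, fell by 1.63, and HRE2 and HRE1, factors of the low-oxygen response, fell by 1.28 and 0.74. The ORA59 signal was dim under OBP4 (7.12), which makes that size less exact. The repressor genes ERF12, from 11.68 ± 0.06 to 12.69 ± 0.04 (SD, n = 3), and ERF8 (0.90) rose. The number of higher relatives was 2 without OBP4 replicate 2 or control replicate 3 and 3 without OBP4 replicate 1 or 3, and the number of lower ones was 1 when any control was left out. In the 6 fits without 1 array, HRE1 and HRE2 passed in 1 each and ERF8 in 3.

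Among the genes that act with these factors in regeneration, several rose while the factors themselves did not pass. Of 28 measured partners and targets, 7 rose and 0 fell by limma, against 5.23% of all loci higher and 8.48% lower. The list median was 0.12. NAC071, a NAC factor needed for tissue reunion in cut stems, went from 6.25, 7.13 and 6.92 to 8.82, 9.01 and 9.16, an increase of 2.23 ± 0.25 (SE), and limma gave an adjusted p of 0.00439. Every OBP4 array was above every control array, and the control values were dim, so the size is less exact. The related NAC096 (0.78), LBD17 (0.76), a callus factor of the LBD family, ARF5 (0.60), an auxin response factor, ASA1 (0.56), an enzyme gene of tryptophan synthesis and a target of ERF109, and PLT5 (0.51), a regeneration factor, rose as well. The count was 4 without control replicate 2, OBP4 replicate 2 or OBP4 replicate 3; with each array left out in turn, NAC096 passed 2 times in 6 and PLT5 1 time.

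A target and a partner of ERF115, PSK5 and PAT1, and WIND1, which has ESR1 as a target, were named after their values were seen. PSK5, a peptide hormone gene that ERF115 activates, stood at 12.64, 13.07 and 12.87 in control roots and at 13.14, 13.20 and 13.53 in OBP4 roots. The groups were apart, by 0.42 ± 0.16 (SE), and limma gave an adjusted p of 0.15. PAT1 differed by -0.06 (adjusted p = 0.644 by limma). WIND1 differed by -0.08 (adjusted p = 0.463); with means above 15, both were near the top of the scanner's range, where differences are compressed.

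Some ethylene genes rose, and few jasmonate genes passed the test. Of 20 ethylene genes, 6 rose and 0 fell by limma, against 5.23% of all loci higher and 8.48% lower. Their median was 0.12. ACS11 (1.85 ± 0.09, SE) and ACS7 (1.14 ± 0.12), which make the ethylene precursor, and the receptor gene ERS2 (1.36 ± 0.14) rose most, with limma's adjusted p of 0.00053, 0.00366 and 0.00338. The ethylene count was 3 without control replicate 2 or without any of the OBP4 replicates in turn. Of 25 jasmonate genes 3 passed limma's test, near the 13.7% of all loci, and of these 1 rose and 2 fell, with a list median of 0.02. LOX4, a lipoxygenase gene of jasmonate synthesis, rose by 3.35 ± 0.29, while the repressor genes JAZ6 and JAZ7 fell by 0.79 and 0.74. Neither JAZ6 nor JAZ7 passed without OBP4 replicate 1, OBP4 replicate 2, control replicate 2 or control replicate 3.

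Early touch and stress genes rose in part. By limma 6 of 19 rose and 0 fell, against 5.23% of all loci higher and 8.48% lower. The median of the list was 0.27. MYB15 (2.61), TCH3, a calmodulin-like gene (2.29), and the factor gene WRKY53, with means of 10.93 and 13.13, rose most. Without control replicate 2, the array with high values of this list, 9 rose, where 3.22% of all loci were called higher. Without control replicate 1, OBP4 replicate 2 or OBP4 replicate 3 the count was 3.

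**Figure D4:**
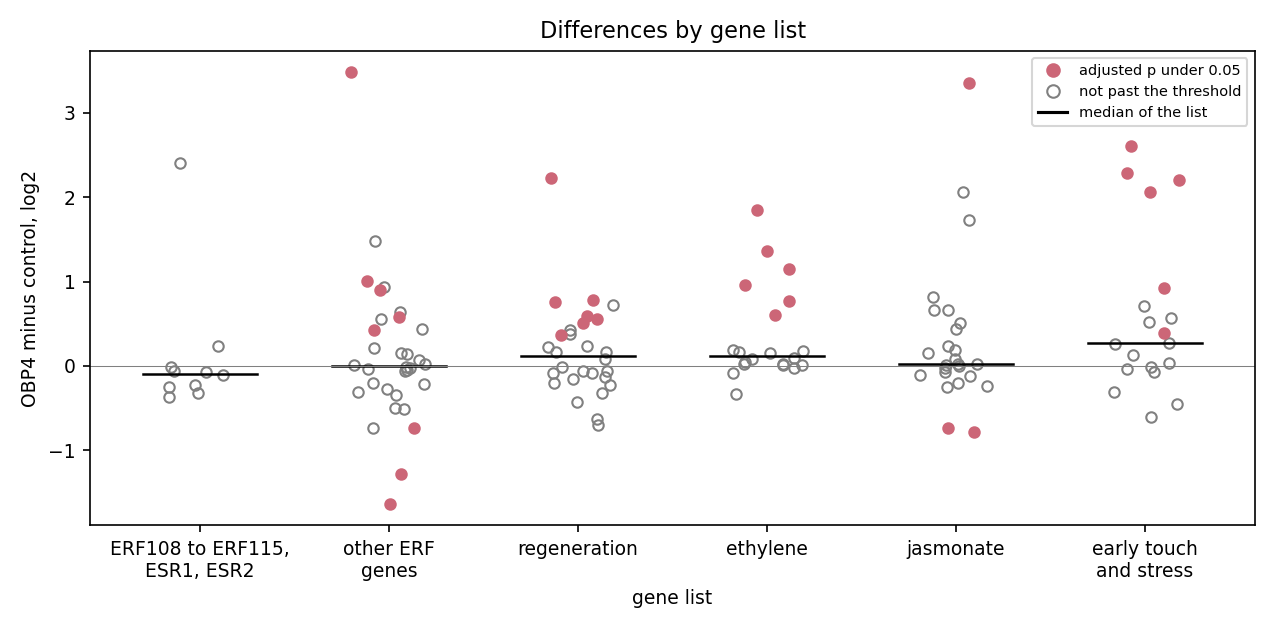
Difference between OBP4 and control roots on the log2 scale (y axis) for every measured gene of 6 lists (x axis); filled red points passed limma's test, open grey points did not, and black lines are list medians. None of the 10 ERF and ESR genes is filled, and the high open point among them is ERF109 at 2.41.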

How the data were processed

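The authors deposited 1 table per array, titled RMA, with a log2 value and the number of probes for each of 37118 gene models, per the file headers. Those headers name no software, settings or genome build. A second deposited table of log2 values, with its normalization not stated, served as an alternative source. Rows of a locus were averaged, giving 32627 loci, with no filter and no further normalization. No per-sample column was left unused.

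Tests used limma 3.58.1 (lmFit, then eBayes) under R 4.3.3, two-sided, adjusted by Benjamini-Hochberg over all loci, with a threshold of 0.05; the fit was tested on simulated data. The 3 arrays per group limit the precision. Differences are OBP4 minus control.

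The members and gene lists were chosen with earlier results of these data known. Genes named are all 10 members, OBP4, and the called genes of each list with the greatest change, at most 3, or 6 for other ERF and regeneration genes. Of 184 list entries, 171 matched symbol and locus, 12 were used by locus and HSFB1 was not analysed here. ERF109, ERF112 and ERF114 are names of the member list, not of the files. Alternatives were other normalizations, filters, variance settings, a replicate block and leaving out each array.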

Additional observations from a re-analysis of the deposited data

Results flagged for a closer look

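A signal lay in the second deposited table of log2 values, whose columns bear the sample names of the arrays and which no result above uses. Under its own labels 4 of the 10 genes were higher in OBP4 roots by limma, where 3.17% of all loci were. ABR1 was higher by 0.97, RAP2.6L by 1.15, ERF114 by 2.59 and ERF115 by 1.90, with limma's adjusted p of 0.0094, 0.0139, 0.00507 and 0.0209. Of the 29 photosynthesis genes, 16 were higher and 0 lower there by limma, against 0 and 0 in the arrays, and their part in the values of the 4 genes was not tested.

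ERF114 stood at 8.89, 8.70 and 9.23 under the control labels and at 11.53, 11.13 and 11.93 under the OBP4 labels of that table. ERF115 stood at 6.86, 7.74 and 7.71 and at 9.32, 9.08 and 9.61. In neither gene did the labels overlap there, while in the arrays both genes overlapped. ERF109 was high in 1 column only, control replicate 1 (12.35), against 8.00 to 8.61 in the other 5, whereas in the arrays control replicate 2 was the high control.

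OBP4 itself did not separate the labels of the second table, with 13.95 ± 0.13 under control and 13.96 ± 0.04 under OBP4 (SD, n = 3). Its columns had medians of 11.59 to 11.61. Levels correlated with the own array across loci at 0.968 to 0.983, but deviations from the mean of each locus only at -0.08 to 0.21. Scale and direction follow the arrays only as far as these levels show, and centring and normalization are unknown. Which RNA the second table describes was not tested.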

How the results depend on the processing

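Counts of called members by limma were 0 higher and 0 lower under quantile normalization, median centring, array weights, the brightest row per locus, an adjusted p of 0.01 and the photosynthesis covariate, which was added after the data were seen. The lower count was 1 with cyclic loess (8.54% of all loci tested), 1 without the dimmest 25% of loci (8 members left; 13.1%), 2 without the dimmest 50% (3 left; 16.6%) and 2 with trend and robust settings (10.8%); the higher count was 4 in the second table. Without single arrays both counts ran from 0 to 1. Over all loci 4472 passed, 1812 in the second table, 1964 at 0.01 and 2463 to 3357 without single arrays.

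With the replicate number as a block 0 members passed and 1702 loci did. Deviations of same-numbered arrays correlated across loci at -0.20, 0.09 and -0.17, so the numbers are not read as pairs.

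Some directions turned. In the second table RAP2.6 was 0.49, ERF109 -1.67, ABR1 0.97, ERF112 0.27, RAP2.6L 1.15, ERF114 2.59, ERF115 1.90 and ESR1 -0.28. Deviations in that table correlated with the own arrays only at -0.08 to 0.21, so these turns are not read as an effect of processing. ABR1 ran from -0.2097 to 0.0482 without single arrays (highest without OBP4 replicate 1) and was 0.0284 with the photosynthesis covariate. ERF115 ran from -0.4021 (without OBP4 replicate 2) to 0.1854 (without OBP4 replicate 3), and was 0.1173 with that covariate. ESR2 was 0.0130 after median centring and ran from -0.4158 (without control replicate 2) to 0.1947 (without control replicate 3). The cause was not tested. The brightness of ESR1 and ESR2, among the dimmest 25% of loci, limits what could be seen of them.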
